A study of Triticum aestivum with 12 samples.

Results

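The signal of 56 wheat root probe sets was highest under uniform low potassium (K); they were selected on their signals in these samples from the 61115 probe sets of the Affymetrix Wheat Genome Array that are not array controls or reporters. A probe set is a group of short probes that reports 1 transcript or several similar transcripts. Each of them met 3 conditions: a mean log2 signal of at least 7 over the 12 arrays, all 3 arrays of uniform low K above each of the 9 other arrays, and a mean in uniform low K at least 1.5-fold above the mean of the 9 others. Of the 61115 probe sets, 26541 met the first condition (43.4%), 181 of these also met the second, and 59 also met the third. Taking 3 given arrays of 12 as the highest has a chance of 1 in 220, which for 26541 probe sets gives 120.6 before the fold limit, so the 181 observed were 1.5 times that number. By the same count the 4 groups ran from 41 to 181 for the highest and from 55 to 260 for the lowest, on both sides of 120.6. Whether 181 exceeds chance was not tested. Of 5 probe sets named in the rule as left out, 3 met the conditions, which leaves the 56 described here. Because signals in uniform low K chose these probe sets, their height in that group is a description and carries no test.

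The plants were wheat (Triticum aestivum) seedlings of the genotype Tongzhou916, 3 weeks old and first raised in normal K, that spent 5 days in hydroponic boxes with the root system divided over 2 compartments. In uniform low K (C. LK) both compartments held 0.005 mmol/L K2SO4, and in uniform normal K (C. NK) both held 1.0 mmol/L. In the split condition 1 compartment held 0.005 mmol/L (its roots are Sp. LK) and the other held 1.0 mmol/L (its roots are Sp. NK). Total RNA of whole roots was measured on 3 arrays in each of these 4 groups, described as biological replicates of pooled plants, and the labels do not say whether Sp. LK and Sp. NK arrays of 1 number share plants. A lower signal can come from fewer cells of a type or from less RNA per cell, and these cannot be told apart in whole roots.

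Potassium is the main inorganic cation of plant cells, where it sets turgor and membrane potential and activates enzymes. Roots take it up through channels and through high-affinity transporters, and in many plants some of the latter are made in larger amounts when K is scarce. In a split root system part of the roots stays in a rich supply and serves the whole plant, so that signals of the plant's K status and the local supply can differ in the same roots.

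The names of nearly all these transcripts are unknown here. Of the 56 members, 55 had no gene symbol in the platform annotation, which gives a symbol to 1273 probe sets of the array (2.08%). The exception was Ta.27859.1.A1_at, which stands for LOC778380, a protein-coding gene on chromosome 3D that the study placed among protein amino acid phosphorylation genes. The study's categories held 3 more members: Ta.9697.1.S1_s_at and Ta.1290.1.S1_a_at under cytoplasmic membrane-bounded vesicle, and Ta.5546.1.S1_a_at under plastid. Of the 1273 symbols 1254 were of the LOC form, so 19 gene lists written as protein names (K transporters and channels, aquaporins, photosynthesis and grain proteins among them) could not be applied to this array: 1 list matched a probe set and none held a member. The root identity of the samples was therefore not checked by marker names. By the array's own naming, 39 members ended in _at, 2 in _a_at (several transcripts of 1 gene), 5 in _s_at (several genes) and 10 in _x_at (probes that may also bind other transcripts). The _x_at form made up 17.9% of the members and 15.7% of the probe sets with a mean of at least 7, but 5 of the 10 members with the largest difference. Members whose names begin with TaAffx numbered 20 (35.7%, against 29.1%).

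Signals are given below on the linear scale, as normalized so that every array had the same trimmed mean of 500.1, and differences between groups on the log2 scale. Over the 56 members the mean of C. LK stood 0.60 to 2.98 above the mean of the 9 other arrays (log2), with a median of 0.80. The distance between the lowest C. LK array and the highest other array ran from 0.00096 to 1.10. In 35 of the 56 the C. LK mean was more than 1.5-fold above each of the 3 other group means (0.58% of the 26541 probe sets with a mean of at least 7, from which the rule drew the members). By single groups this held against Sp. LK in 49 members (2.43%), against Sp. NK in 50 (1.82%) and against C. NK in 41 (2.06%). The median SD between the 3 arrays of a group was 0.18 in C. LK, 0.34 in Sp. LK, 0.36 in Sp. NK and 0.29 in C. NK, on the log2 scale. The rule favours probe sets whose C. LK arrays lie close together, so the lower SD in C. LK cannot be read as a trait of that group.

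**Figure D1:**
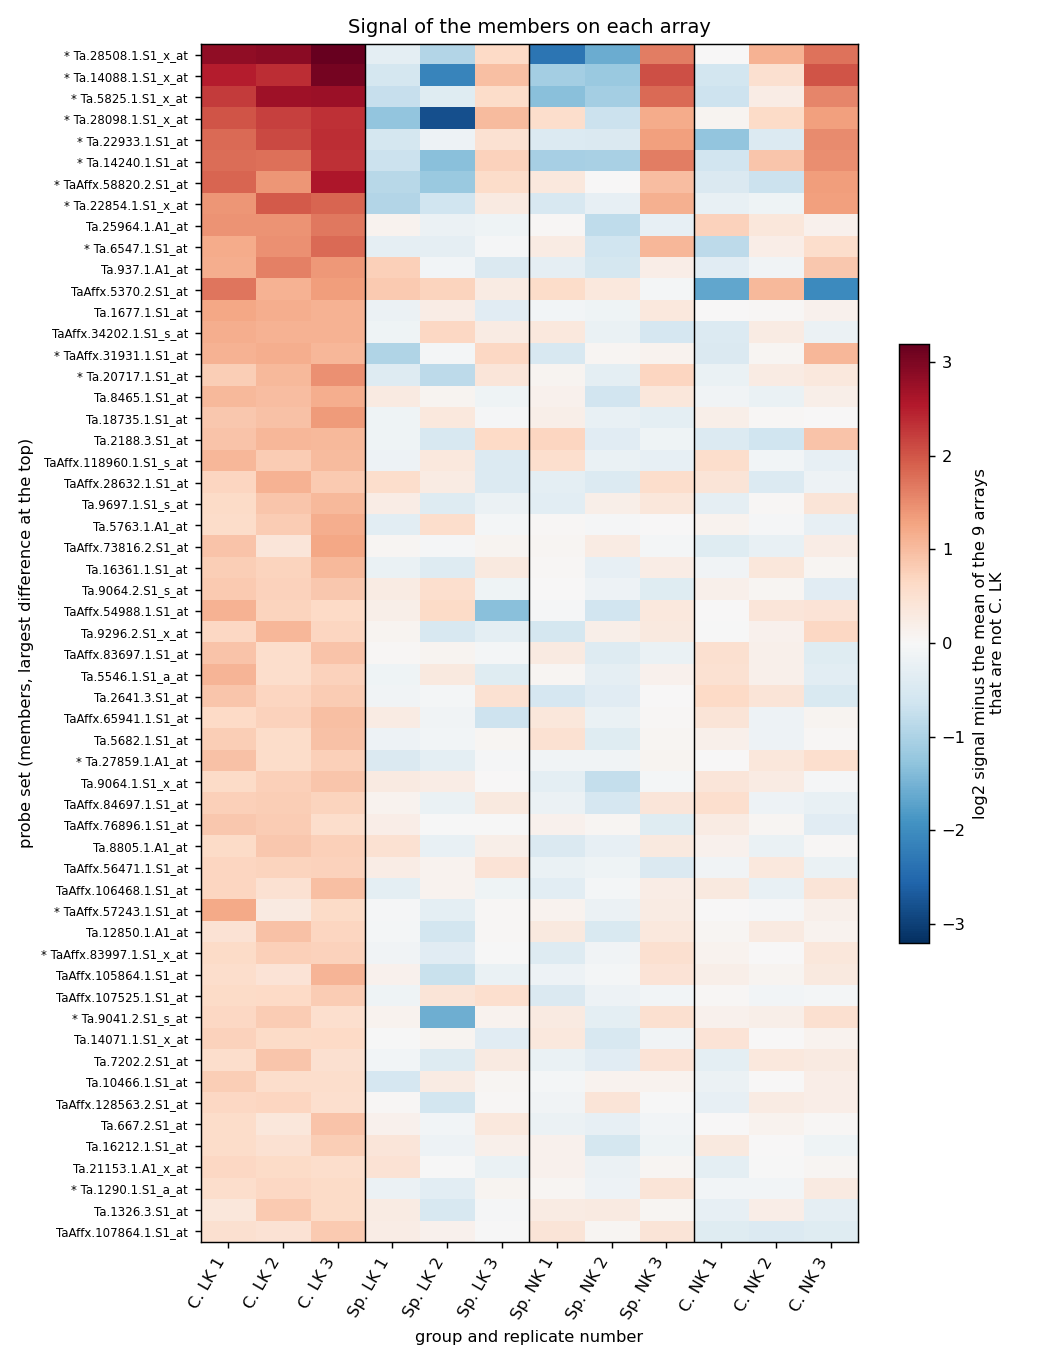
Each row is 1 of the 56 members and each column 1 of the 12 arrays, and the colour is the log2 signal minus the mean of the 9 arrays that are not C. LK. An asterisk marks the 16 members in which replicate 3 was the highest array in each of Sp. LK, Sp. NK and C. NK; 9 of them are among the 10 rows at the top.

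The member with the largest difference was Ta.28508.1.S1_x_at. Its signals in C. LK were 769, 799 and 972. The other arrays read 86.6, 55.9 and 166 in Sp. LK, 21.4, 36.0 and 335 in Sp. NK, and 108, 232 and 358 in C. NK. The C. LK arrays were close to each other, while the third array was the highest in each of the other groups and exceeded the lowest by a wide margin. The C. LK mean was 2.98 above the others (7.86-fold), and the gap of 1.10 between the lowest C. LK array and the highest other array was the widest among the members.

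The members of ranks 2, 3 and 6 by difference are shown next because they were most like the first over the 9 other arrays. Ta.14088.1.S1_x_at read 779, 694 and 1128 in C. LK, against 91.9, 31.1 and 263 in Sp. LK, 64.0, 59.2 and 562 in Sp. NK and 90.3, 192 and 550 in C. NK. Ta.5825.1.S1_x_at read 1158, 1606 and 1644 in C. LK, against 148, 189 and 367 in Sp. LK, 97.2, 116 and 873 in Sp. NK and 156, 293 and 722 in C. NK. Ta.14240.1.S1_at read 661, 643 and 956 in C. LK, against 119, 75.3 and 318 in Sp. LK, 90.7, 92.7 and 588 in Sp. NK and 124, 349 and 537 in C. NK. In each of these the replicates numbered 3 of Sp. NK and C. NK lay nearer to the C. LK arrays than the other replicates of their groups did. The differences from the 9 others were 2.65 for Ta.14088.1.S1_x_at, 2.56 for Ta.5825.1.S1_x_at and 1.96 for Ta.14240.1.S1_at. Those of ranks 4 and 5, Ta.28098.1.S1_x_at (2.18) and Ta.22933.1.S1_at (2.10), also had replicate 3 as the highest array of each other group but were less like the first. Ta.22933.1.S1_at read 499, 613 and 724 in C. LK, against 95.6, 127 and 198 in Sp. LK, 105, 102 and 351 in Sp. NK and 59.4, 105 and 404 in C. NK.

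**Figure D2:**
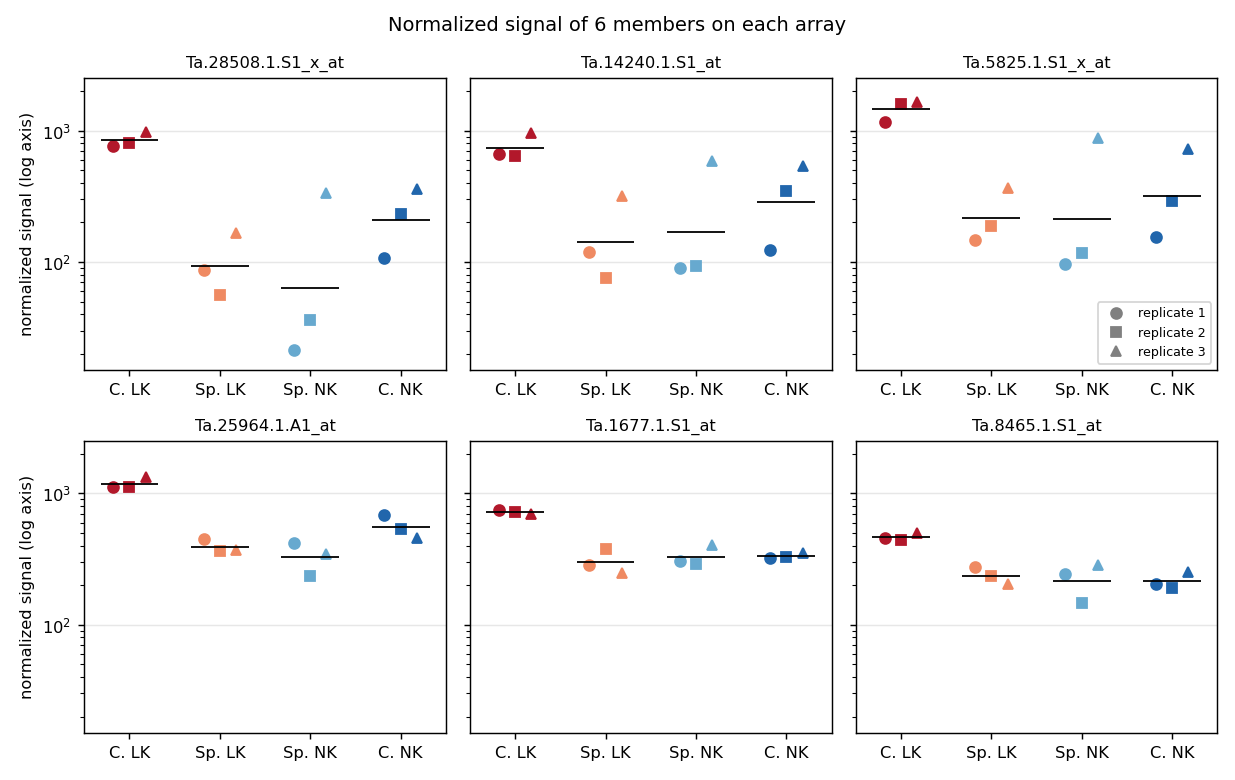
Normalized signal (log axis) of 6 members on each array by group; point shapes give the replicate number and the horizontal line is the mean on the log2 scale. In the upper row (Ta.28508.1.S1_x_at, Ta.14240.1.S1_at and Ta.5825.1.S1_x_at) replicate 3 was the highest array of each other group, and in the lower row (the given marker, Ta.1677.1.S1_at and Ta.8465.1.S1_at) it was not the highest in all of them.

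This order of the replicates recurred through the list. Replicate 3 was the highest array in each of Sp. LK, Sp. NK and C. NK in 16 of the 56 members (28.6%), compared with 4.83% of the 26541 probe sets with a mean of at least 7. Replicate 1 was the highest in each of these groups in 5 members (background 3.31%) and replicate 2 in 0 (background 9.26%). The 16 included 9 of the 10 members with the largest difference, the exception being the probe set given as the marker of the list, which is the ninth in that order. Replicate 1, 2 or 3 was the lowest array in each of these groups in 4, 3 and 3 members (backgrounds 3.2%, 4.8% and 9.4%). The pattern was noticed in these values and then counted, and no test was run on it. Under quantile normalization or median centring it held in 15 to 17 members.

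The 16 members were chosen by the order of the replicates, so the replicates numbered 3 had to give their smallest excess, and the values that follow describe its size only. The C. LK mean exceeded the 3 replicates numbered 1 by a median of 2.03, those numbered 2 by 1.91 and those numbered 3 by 0.75. For the other 40 members the medians were 0.74, 0.85 and 0.77, and the smallest value came from replicate number 1 in 17, number 2 in 6 and number 3 in 17. The SD over the 9 other arrays had a median of 0.70 in the 16 and 0.31 in the 40, and it exceeded 0.5 in 15 of all 56 members (26.8%, background 5.49%). By single array, the 16 lay at a median of -0.51, -0.50 and 0.44 around the mean of the 9 in Sp. LK, at -0.26, -0.31 and 1.03 in Sp. NK and at -0.23, 0.20 and 1.18 in C. NK, while their C. LK arrays lay at 1.32, 1.44 and 1.84. The C. LK replicates thus stood above all of these, and replicate 3 was the highest of them in 9 of the 16.

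**Figure D3:**
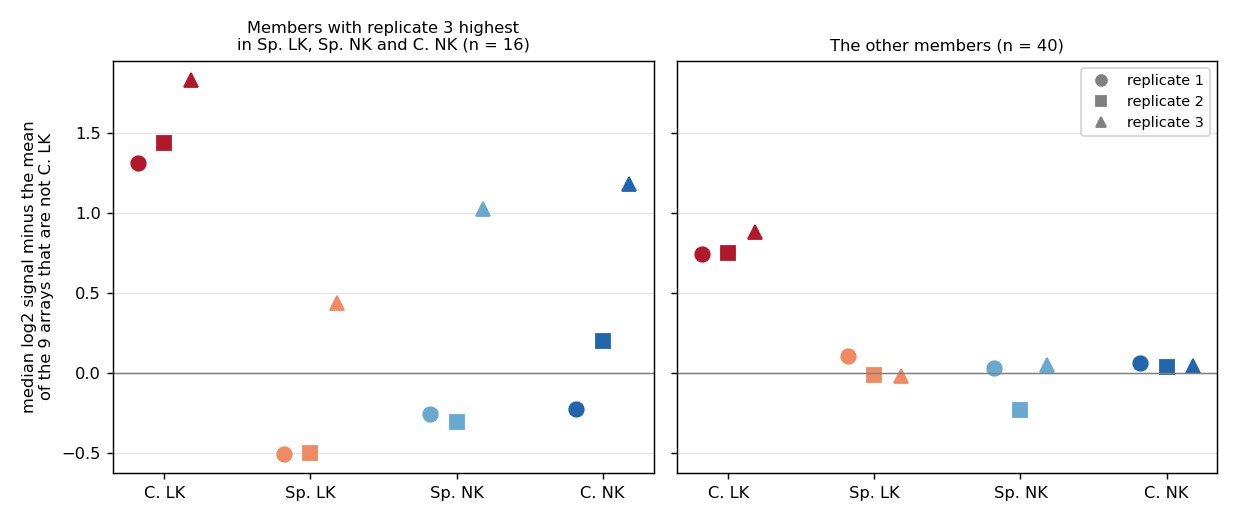
Median over members of the log2 signal minus the mean of the 9 arrays that are not C. LK, by array, for the 16 members in which replicate 3 was highest in each other group (left) and for the other 40 (right). On the left the replicates numbered 3 of Sp. NK (1.03) and C. NK (1.18) lie between the other replicates of their groups and C. LK, and on the right the 9 other arrays lie near 0.

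The 16 members also varied together over the 9 arrays that are not C. LK. The median Pearson correlation of their 120 pairs was 0.73 (0.15 to 0.98, all above 0), and that of the 780 pairs of the other 40 members was 0.04, with 428 above 0. These are descriptions over 9 arrays, which share the scaling, and the 16 share a high replicate 3 by the way they were chosen, which raises their value. The members most like Ta.28508.1.S1_x_at over the 9 arrays were Ta.14240.1.S1_at (r = 0.92), Ta.5825.1.S1_x_at (0.91) and Ta.14088.1.S1_x_at (0.87), while Ta.22933.1.S1_at (0.64) and Ta.28098.1.S1_x_at (0.54) were less like it. A probe set left out by the rule, Ta.723.1.S1_at for the tubulin gene TUBA, had the same order, with signals of 135, 239 and 1999 in Sp. NK and 258, 556 and 1981 in C. NK, and 2159, 3265 and 2501 in C. LK. No label marks the replicates numbered 3 as a batch, and whether they differ in handling, tissue or plants was not tested.

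The 40 members without replicate 3 highest in each other group differed from the 9 other arrays by less (median 0.79, against 1.62 in the 16). Some of them differed by a similar amount against every replicate. Ta.1677.1.S1_at read 752, 722 and 691 in C. LK, and 283, 378 and 248 in Sp. LK, 303, 292 and 405 in Sp. NK and 322, 328 and 354 in C. NK. Its C. LK mean was 2.25-fold above the 9 others, and the excess over the replicates numbered 1, 2 and 3 was 1.25, 1.12 and 1.13. The gap of 0.77 between the lowest C. LK array and the highest other array was exceeded only by that of Ta.28508.1.S1_x_at among the members. The 3 other groups overlapped fully in this probe set.

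Ta.8465.1.S1_at read 456, 439 and 498 in C. LK and 145 to 287 on the 9 other arrays (2.09-fold). Ta.18735.1.S1_at read 1080, 1127 and 1530 in C. LK and 478 to 746 elsewhere (2.07-fold). TaAffx.34202.1.S1_s_at read 412, 397 and 394 in C. LK and 126 to 289 elsewhere (2.18-fold). Ta.16361.1.S1_at read 279, 265 and 333 in C. LK and 123 to 210 elsewhere (1.79-fold). In none of these members was 1 replicate number the highest array in each of the other groups. The excess over the replicates numbered 1, 2 and 3 still varied, with 0.96, 1.31 and 0.92 in Ta.8465.1.S1_at and 0.93, 0.94 and 0.64 in Ta.16361.1.S1_at. Ta.14071.1.S1_x_at read 10860, 9997 and 10267 in C. LK and 4618 to 8922 elsewhere (1.58-fold), so that the range of its 9 other arrays was wider than its distance to C. LK.

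Among the members with an annotation, Ta.27859.1.A1_at (LOC778380, in the protein phosphorylation category) read 362, 285 and 317 in C. LK. It read 137, 153 and 185 in Sp. LK, 176, 175 and 199 in Sp. NK and 191, 243 and 273 in C. NK. The C. LK mean was 1.03 above Sp. LK, 0.81 above Sp. NK and 0.46 above C. NK. By their means the groups descended in the order C. LK, C. NK, Sp. NK and Sp. LK, and Sp. NK overlapped with both Sp. LK and C. NK. This probe set is 1 of the 16 members in which replicate 3 was highest in each other group. Ta.9697.1.S1_s_at, of the vesicle category, read 918, 1109 and 1224 in C. LK and 451 to 787 elsewhere (1.80-fold). Ta.1290.1.S1_a_at, of the same category, read 1784, 1924 and 1865 in C. LK and 958 to 1602 elsewhere (1.53-fold). Ta.5546.1.S1_a_at, of the plastid category, read 1284, 901 and 1018 in C. LK and 467 to 849 elsewhere (1.74-fold). In these 3 the other groups overlapped each other.

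The probe set given as the marker of these members has no gene symbol and is the ninth row of the heat map of the members. Its SD over the 9 other arrays was 0.43 (log2), the lowest among the 10 members with the largest difference. Over all 56 members the median of this SD was 0.33. The marker read 1123, 1115 and 1337 in C. LK, 450, 363 and 374 in Sp. LK, 421, 236 and 345 in Sp. NK, and 687, 535 and 454 in C. NK. Every C. LK array was above every other array, and every array of both split sides was below every C. NK array. The C. LK mean was 2.88-fold above the 9 others, and 1.59 above Sp. LK, 1.87 above Sp. NK and 1.11 above C. NK (log2). Here the replicates numbered 1 gave the smallest excess (1.23, against 1.73 and 1.61 for those numbered 2 and 3).

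The next question was whether members high in uniform low K were also higher on the low-K side of a split root system. The rule did not use the order of the 3 other groups, but it required each of their arrays to lie below every C. LK array. A probe set with Sp. LK as high as C. LK could not be a member, so the question can be answered only within that limit. The limit holds for every count, median and p of the 3 comparisons that follow. Sp. LK vs. C. NK set roots in low K on a plant with another supply against uniform normal K. Sp. NK vs. C. NK did so for roots in normal K on a plant with a low-K side, and Sp. LK vs. Sp. NK compared both sides. At the study's thresholds (unadjusted p under 0.05 in limma and a fold change above 1.5), Sp. LK vs. C. NK gave 1 member with a higher signal and 1 with a lower signal in Sp. LK. Of all 61115 probe sets 2.2% were higher and 1.3% lower at these thresholds, and of those with a mean of at least 7, 1.15% and 0.399%. With Benjamini-Hochberg adjustment over 61115 probe sets in limma no member passed 0.05 in any of the 3 comparisons, and the lowest adjusted p of a member was 0.983, 0.999 and 1.00. Without adjustment, 5, 4 and 3 members had a p under 0.05. Among all 61115 probe sets in limma 0 passed after adjustment, and 2930, 2594 and 1907 had an unadjusted p under 0.05. This 0 became 21 for Sp. NK vs. C. NK (3462 at an unadjusted p under 0.05) in limma when those 6 arrays alone were fitted with a replicate block, where no member passed and the lowest adjusted p of a member was 0.517. With 3 arrays against 3, an exact two-sided permutation test cannot go below 0.1.

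In Sp. LK vs. C. NK the member that was higher was TaAffx.5370.2.S1_at. It read 220, 202 and 148 in Sp. LK and 38.5, 251 and 29.9 in C. NK, so the groups overlapped, with replicate 2 of C. NK above all Sp. LK arrays. The difference was 1.5 (SE 0.58, unadjusted p = 0.0226 and adjusted p = 0.983 in limma). The lower member was Ta.28098.1.S1_x_at, with 41.6, 14.1 and 201 in Sp. LK and 105, 153 and 248 in C. NK, a difference of -1.69 (SE 0.73, unadjusted p = 0.0368 and adjusted p = 0.983 in limma). Neither call was stable when arrays were left out: that of TaAffx.5370.2.S1_at was lost without replicate 1 or 2 of Sp. LK or replicate 1 or 3 of C. NK (p 0.0538 to 0.125 in limma), and that of Ta.28098.1.S1_x_at without replicate 1 or 2 of Sp. LK or replicate 2 or 3 of C. NK (p 0.0661 to 0.227). The count of 2 members became 8 without replicate 3 of Sp. LK (2 higher and 6 lower), and 1 without replicate 2 of Sp. LK, replicate 2 of C. NK or replicate 3 of C. NK. The RNA quality control for actin (signal at the 3′ end minus the 5′ end, log2) was -3.87 to -2.16 in C. NK, lower without overlap than in C. LK (-1.51 to -0.99) and in Sp. LK (at most -0.33), and it overlapped with -2.48 to -1.17 in Sp. NK. Its part in the differences from C. NK was not tested.

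In Sp. NK vs. C. NK 1 member was higher and 2 were lower at the study's thresholds (1.79% and 1.59% of all probe sets in each direction, 0.889% and 0.456% of those with a mean of at least 7). TaAffx.107864.1.S1_at read 203, 159 and 203 in Sp. NK and 118, 113 and 117 in C. NK, with no overlap, a difference of 0.69 (SE 0.21, unadjusted p = 0.0048 and adjusted p = 0.999 in limma). It was also above C. NK on every array of Sp. LK (182, 167 and 152, a difference of 0.53 with unadjusted p = 0.023 in limma), so that C. NK stood below the 3 other groups. Its call in Sp. NK held when any 1 array was left out. It was the only member with all arrays of Sp. LK, or of Sp. NK, above all arrays of C. NK.

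The given marker differed by -0.76 between Sp. NK and C. NK (SE 0.21, unadjusted p = 0.0027 and adjusted p = 0.999 in limma), and by -0.48 between Sp. LK and C. NK (SE 0.21, unadjusted p = 0.0363). Without replicate 2 of Sp. NK the first difference was -0.53, under the fold limit. Ta.28508.1.S1_x_at differed by -1.71 in Sp. NK (SE 0.78, unadjusted p = 0.0467 in limma), with overlapping groups, and that call was lost when any of 8 arrays was left out, among them replicates 1 and 2 of Sp. NK (-0.92 and -1.30) and replicate 3 of C. NK (-1.31). The count of 3 members became 1 without replicate 2 of Sp. NK, 7 without replicate 3 of Sp. NK and 5 without replicate 3 of C. NK. The same control for sucrose synthase was 4.29 to 4.51 in C. NK, 3.71 to 4.20 in Sp. NK and 3.86 to 4.06 in C. LK, without overlap with C. NK, and 3.81 to 4.30 in Sp. LK, which overlapped with it. The controls for G-6-PDH, gapdh, ubiquitin and CYP86 overlapped between all 4 groups. Its part in these differences was not tested.

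In Sp. LK vs. Sp. NK no member passed the study's thresholds in limma, where 1.61% of all probe sets were higher and 1.14% lower (0.377% and 0.283% of those with a mean of at least 7). This 0 became 4 without replicate 3 of Sp. LK, 3 without replicate 2 of Sp. NK, 2 without replicate 1 or replicate 3 of Sp. NK, and 1 without replicate 1 or 2 of Sp. LK or replicate 3 of C. NK. The smallest p values belonged to both probe sets of the Ta.9064 cluster and to TaAffx.56471.1.S1_at. Ta.9064.1.S1_x_at read 714, 800 and 874 in C. LK, 574, 549 and 473 in Sp. LK, 379, 279 and 447 in Sp. NK and 611, 566 and 460 in C. NK. Sp. LK exceeded Sp. NK on every array, by 0.55 (SE 0.18, unadjusted p = 0.0083 and adjusted p = 1.00 in limma). Its difference of -0.58 between Sp. NK and C. NK (unadjusted p = 0.0059 in limma) lay just under the fold limit. The values for Ta.9064.2.S1_s_at were 0.40 between the sides (SE 0.18, unadjusted p = 0.0386 in limma), with overlapping groups, and for TaAffx.56471.1.S1_at 0.53 (SE 0.24, unadjusted p = 0.043 in limma), with 141, 130 and 164 in Sp. LK and 105, 109 and 87.7 in Sp. NK.

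The median difference over members was -0.16 for Sp. LK minus C. NK, -0.13 for Sp. NK minus C. NK and -0.06 for Sp. LK minus Sp. NK, against 0.02, -0.00078 and 0.02 over all probe sets. Single arrays moved these medians: the first was -0.08 without replicate 3 of C. NK and -0.10 without replicate 2 of Sp. LK, the second was -0.0031 without replicate 2 of Sp. NK, -0.24 without replicate 3 of Sp. NK and -0.05 without replicate 3 of C. NK, and the third turned to 0.07 without replicate 3 of Sp. NK and was -0.17 without replicate 2 of Sp. NK. The mean of Sp. LK was under that of C. NK in 38 members (67.9%, background 49.2%) and the mean of Sp. NK in 37 (66.1%, background 51%). C. NK was the highest of the 3 other groups in 28 members (50%, background 37.3%) and the lowest in 9 (16.1%, background 37.1%), while Sp. LK was the lowest in 30 (53.6%, background 32%) and the highest in 14 (25%, background 35.6%). Sp. NK was the highest in 14 (25%, background 27.1%) and the lowest in 17 (30.4%, background 31%). All Sp. LK arrays were below all C. NK arrays in 5 members (background 4.23%) and above them in 1 (4.91%). All Sp. NK arrays were below all C. NK arrays in 3 (4.11%) and above in 1 (4.03%), and between the sides Sp. LK lay below Sp. NK in 0 (2.57%) and above in 2 (2.83%). These comparisons share the C. NK arrays, and counts of 0 to 5 members are too small to be read against their backgrounds. The 38 members with Sp. LK under C. NK held all 16 in which replicate 3 was highest in each other group. Sp. LK was the lowest group in most of these 16 (background 32%), which were chosen on values of the same 9 arrays. Because the 16 varied together, the medians and counts over the list do not rest on independent members.

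**Figure D4:**
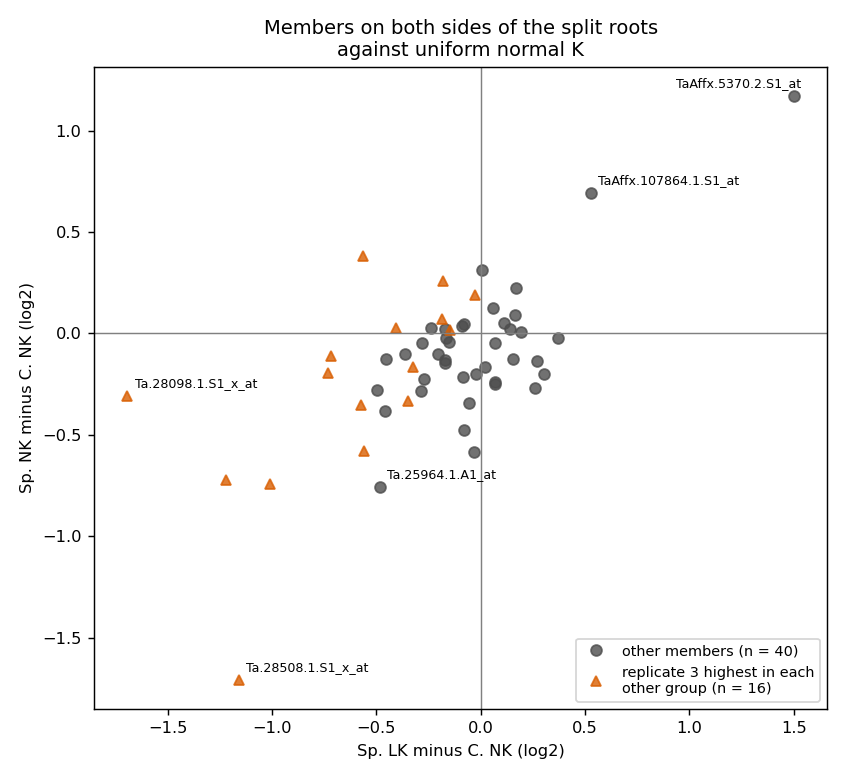
Each point is 1 member, with Sp. LK minus C. NK on the horizontal axis and Sp. NK minus C. NK on the vertical axis (log2); triangles are the 16 members in which replicate 3 was highest in each other group. Ta.28508.1.S1_x_at lies lowest (-1.71), Ta.28098.1.S1_x_at farthest to the left (-1.69) and TaAffx.5370.2.S1_at farthest to the right (1.5); both axes share the C. NK arrays.

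Other probe sets of the same transcript clusters give a further view of the members. The 56 members came from 55 clusters, of which 26 held 47 further probe sets. Of the 29 with a mean of at least 7, 24 had a C. LK mean above the mean of the 9 others (48.2% of all probe sets with such a mean), with a median difference of 0.18 (-0.52 to 1.72, against a median of -0.0086). The fold limit was passed by 3 of the 29: Ta.6547.2.S1_at (1.72), Ta.9296.2.S1_a_at (0.80) and the probe set Ta.5546.3.S1_a_at that the rule left out (1.13). All 3 C. LK arrays were above the others in 3 of the 29, and only Ta.5546.3.S1_a_at met both. Ta.28508.1.S1_at, with a mean of 6.93 just under the limit, differed by 2.08. For other clusters the members stood alone. The 4 further probe sets of Ta.2188 differed by 0.08 to 0.19 where the member Ta.2188.3.S1_at differed by 1.00. These 4 were far brighter, with mean log2 signals of 12.7 to 13.3 against 7.45 for the member. TaAffx.54988.1.S1_x_at differed by -0.52 where the member TaAffx.54988.1.S1_at differed by 0.81. Probe sets of 1 cluster can share probes and transcripts, and they are not independent measurements.

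The same rule was turned to the other groups to see how many probe sets each would give. Before the fold limit, all 3 arrays were the highest in 181 probe sets for C. LK, 133 for C. NK, 88 for Sp. LK and 41 for Sp. NK, against 120.6 for 1 in 220. After the fold limit 59 remained for C. LK, 27 for Sp. LK, 8 for Sp. NK and 7 for C. NK. In the opposite direction C. LK was the lowest group in 260 probe sets before the fold limit and 75 after it, more than it was the highest. C. LK gave the largest number in both directions among the 4 groups. Before the fold limit the 4 groups together gave 443 probe sets as the highest and 488 as the lowest, where 120.6 is the number for each group and direction. Single groups thus lay on both sides of that number, and whether C. LK exceeds chance was not tested.

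**Figure D5:**
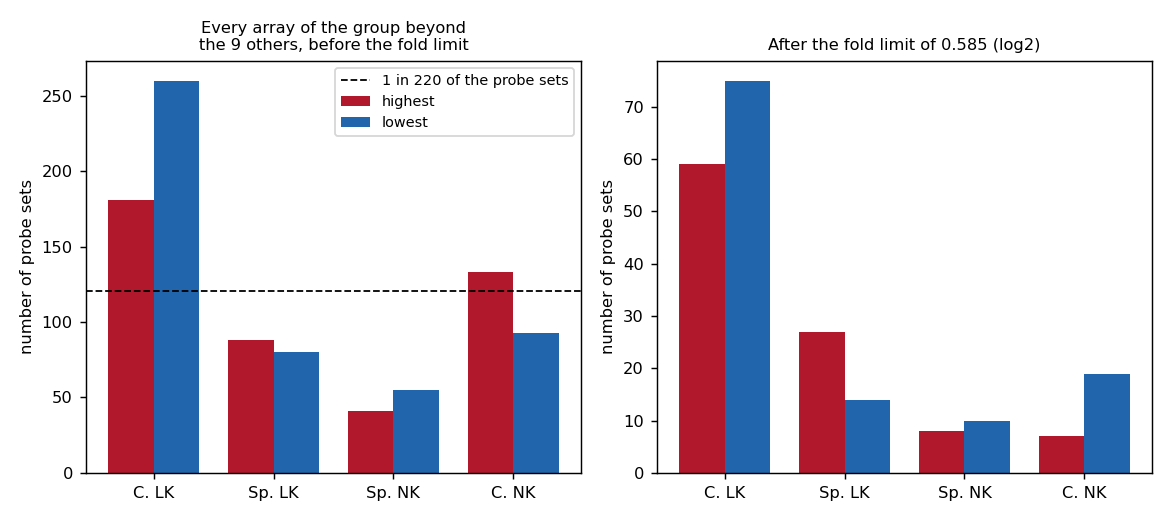
Number of probe sets (mean log2 signal of at least 7) in which all 3 arrays of a group lay above (highest) or below (lowest) the 9 others, before the fold limit (left) and after it (right). The dashed line is 1 in 220 of the probe sets (120.6); C. LK stands above it in both directions (181 and 260).

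Close to the limits of the rule the choice of members turned on small differences. TaAffx.31931.1.S1_at was inside by a gap of 0.00096 and Ta.2188.3.S1_at by 0.0019, and Ta.30527.1.S1_at was outside by -0.0055. TaAffx.107864.1.S1_at was inside the fold limit with 0.601 and TaAffx.111593.1.S1_s_at outside it with 0.583. Ta.6071.1.S1_at, with a difference of 2.24 and all C. LK arrays above the others, was outside because its mean was 6.89. The count of 56 became 120, 124 and 173 without replicate 1, 2 and 3 of C. LK, 114 without replicate 3 of C. NK, and 59 to 70 without any 1 of the other 8 arrays, where in each case fewer arrays had to be separated. With the 8 arrays numbered 1 and 2 alone, 504 probe sets met the rule, 49 of the members among them.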

How the data were processed

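Signals of 12 Affymetrix Wheat Genome Arrays were normalized by the authors with MAS5 in GeneSpring, and the deposited unit is log2 signal, with 1 value for each probe set on each array. After removal of the outer 2% at each end, linear signals have a mean of 500.1 on every array, and differences are relative to that level. Raw intensities and detection calls were not used here, and 30.4% to 33.8% of signals per array were under 32, where small differences give large folds. The 3 arrays per group limit the precision.

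The 175 controls (111 AFFX and 64 RPTR) were left out. Differences among Sp. LK, Sp. NK and C. NK were fitted with limma 3.58.1 in R 4.3.3 (lmFit over 4 group means, eBayes with a variance trend), without further scaling, and adjusted over 61115 probe sets; the script was tested on simulated data. The C. LK arrays, whose values chose the members, enter the shared variance of this fit and so the SE and p of the members. The study's methods state no correction. Members, gene lists and tests were chosen with earlier results of these data known. Named members are the marker, the 10 largest differences, the 10 widest gaps, those with a symbol or a category in the study, and the 5 smallest p in each comparison; others were named after their values were seen.

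Arrays of 1 number deviated together (r above 0.1 in all 3 pairs) only for Sp. NK with C. NK (0.21 to 0.35), so by that check alone the numbers were taken to pair these arrays. The fit with the replicate number as a block gave 3 members there, as without it. The SE and p values given for single members in Sp. NK vs. C. NK come from the fit without this block. The alternatives tried were other limits of the rule, quantile normalization, median centring, a pseudocount of 32, other fits, the replicate block, and leaving out each array. Gene names came from the platform annotation and, for LOC778380, the IWGSC CS RefSeq v2.1 gene table.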

Additional observations from a re-analysis of the deposited data

Results flagged for a closer look

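For the probe set given as the marker of these members every C. LK array was above every C. NK array and every Sp. LK array was below every C. NK array. Sp. LK minus C. NK was -0.48 on the log2 scale, and Sp. NK, in normal K, was lower still (-0.76), so the lower signal was found on both sides of the split roots and Sp. LK exceeded Sp. NK by 0.28 (SE 0.21, unadjusted p = 0.205 in limma). For Ta.27859.1.A1_at, too, every C. LK array was above and every Sp. LK array below every C. NK array, with Sp. LK minus C. NK of -0.57. Its Sp. NK arrays overlapped with those of C. NK (Sp. NK minus C. NK of -0.35, unadjusted p = 0.104 in limma). The sides overlapped as well (Sp. LK minus Sp. NK of -0.22, unadjusted p = 0.297 in limma). All Sp. LK arrays were below all C. NK arrays in 5 of the 56 members, against 4.23% of probe sets with a mean of at least 7. Whether the difference between C. LK and C. NK differs from that between Sp. LK and C. NK was not tested, since the values in C. LK chose these probe sets.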

How the results depend on the processing

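The 56 members became 29 with a mean of at least 8, 19 with a difference of at least 1, 383 without the separation of arrays and 504 with the 8 arrays numbered 1 and 2; the last 2 were chosen after seeing the data. Leaving out 1 array gave 59 to 173 members. With fewer arrays, as also with the 8, separation by chance is more frequent, so these counts cannot be set against 56 directly. Under a mean of at least 6, a difference of at least 0.5, quantile normalization and median centring the count was 82, 80, 57 and 56.

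For members past the study's thresholds in limma, Sp. LK vs. C. NK gave 2, and 0 without a variance trend and by the methods' t-test, 1 with the 6 arrays of the contrast, 5 with the replicate block, 6 with the block and the 6 arrays, and 6 with the 8 arrays numbered 1 and 2. Sp. NK vs. C. NK gave 3, and 1 by the methods' t-test and 8 with the 8 arrays. Sp. LK vs. Sp. NK gave 0, and 2 with the replicate block, 2 with the block and the 6 arrays, and 7 with the 8 arrays. Leaving out 1 array gave 1 to 8, 1 to 7 and 0 to 4 members. The block on the 6 arrays and the 8-array fit were added after seeing the data. No member passed after adjustment in any of these fits, while the count over all probe sets rose from 0 to 21 for Sp. NK vs. C. NK with the block and the 6 arrays, and to 1 in each comparison with C. NK without a variance trend. Outside Sp. NK with C. NK the check of replicate numbers did not show pairing, but it cannot tell whether arrays share plants. For Sp. LK with Sp. NK its r ran from -0.21 to 0.27, and the labels do not say whether these arrays share plants. The cause of the shifts between fits was not tested.

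The median over members was -0.17 to -0.08 for Sp. LK minus C. NK, -0.24 to -0.0031 for Sp. NK minus C. NK and -0.17 to 0.07 for Sp. LK minus Sp. NK when 1 array was left out, and the last turned sign without replicate 3 of Sp. NK and with the 8 arrays (0.04). The other directions held. The differences of the 25 named members from the 9 others stayed above 0 in every setting, and 7 moved by more than 1 SD, all with the 4 arrays numbered 3 alone (0.36 to 1.48).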
